A study of Mus musculus with 72 samples.

Results

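The chromatin binding of CTCF was mapped by ChIP-seq in mouse embryonic stem cells (ESCs) that carry HMGN1 and HMGN2 (WT, Hmgn1+/+n2+/+) and in ESCs that lack both proteins (DKO, Hmgn1-/- n2-/-). There were 4 CTCF libraries, 2 WT and 2 DKO, among the 64 libraries of the series with a peak list, and each list was called on its own library. All cells were labelled C57BL/6 and no treatment is labelled. The study calls the ESCs cell lines and the libraries of a genotype biological replicates. The number of lines or clones behind each genotype is not given in the sources used here. Peaks of the 4 lists that overlapped by at least 1 bp were merged, which gave 70857 CTCF sites. The question was where the genotypes differ in the number, strength and position of these sites.

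CTCF is a zinc finger protein that binds a long DNA motif. Cohesin, a ring complex that extrudes chromatin loops, halts at bound CTCF, most often where the motifs of a pair of sites point towards each other, so CTCF sites mark loop anchors and the borders of topological domains. CTCF also acts as an insulator at imprinted genes, in the Hox clusters and at the X inactivation centre. HMGN1 and HMGN2 are small proteins that bind nucleosomes rather than a DNA sequence.

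The CTCF lists carried no measure of Hmgn1 or Hmgn2 expression and therefore could not check the genotype labels. The stem cell label was set against the other ESC lists. The share of all gene starts with such peaks was not counted, so the counts are a description. NANOG peaks lay within 1000 bp of the start of 6 of 8 stem cell marker genes in both WT libraries and of 7 of 8 in both DKO libraries, against 0 of 5 fibroblast genes in either genotype. For 5 B cell genes the counts were 0 in WT and 1 in DKO. OCT4, SOX2 and KLF4 each marked 2 of the 8 stem cell genes in WT, and 4, 4 and 3 in DKO. At the fibroblast and B cell genes these factors had no peak in both libraries of a genotype, except OCT4 at 1 fibroblast gene in DKO.

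Binding was read at the sequence first. A motif was learned from the mm9 reference sequence at the 3688 chromosome 1 sites called in all 4 libraries, and its search was reported on the other chromosomes only. Its best conserved letters read CCAGNAGAGGGC. The following 40-base stretches of the mm9 reference show examples of strong shared sites and sites described below, printed in the direction of the motif, with the 20 bases that matched the learned matrix in capitals. The first 3 were called in all 4 libraries with no called change in reads, the next was called with more reads in DKO, then come sites called in a single genotype, and last come sites from among those with the largest changes in reads.
Tmem233 site, chr5:116566661-116566700, plus strand: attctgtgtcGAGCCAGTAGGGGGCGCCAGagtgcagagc
Gm16271 site, chr10:86487764-86487803, plus strand: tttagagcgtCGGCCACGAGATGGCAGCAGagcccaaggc
Hoxa7 site, chr6:52171793-52171832, minus strand: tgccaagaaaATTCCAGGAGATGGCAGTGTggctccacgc
Pou5f1 and Tcf19 site, chr17:35651006-35651045, minus strand: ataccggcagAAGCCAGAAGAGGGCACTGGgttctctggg
Cpeb4 site, WT-only, chr11:31673208-31673247, plus strand: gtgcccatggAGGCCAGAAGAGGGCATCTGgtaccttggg
Ebf1 site, WT-only, chr11:44406681-44406720, minus strand: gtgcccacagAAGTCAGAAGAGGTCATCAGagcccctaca
Qrfpr site, WT-only, chr3:36140729-36140768, minus strand: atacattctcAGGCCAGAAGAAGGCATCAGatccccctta
Acin1 site, DKO-only, chr14:55278989-55279028, plus strand: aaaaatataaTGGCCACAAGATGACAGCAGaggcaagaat
Vmn1r159 site, reads higher in DKO, chr7:23640624-23640663, minus strand: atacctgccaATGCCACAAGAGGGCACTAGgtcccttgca
B3galtl site, reads higher in DKO, chr5:150496713-150496752, plus strand: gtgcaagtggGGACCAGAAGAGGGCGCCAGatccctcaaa
Odz2 site, reads lower in DKO, chr11:35910973-35911012, plus strand: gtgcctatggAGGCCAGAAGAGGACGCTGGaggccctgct
Stard13 site, reads lower in DKO, chr5:151854800-151854839, minus strand: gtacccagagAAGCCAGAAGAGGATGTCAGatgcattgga
Hbq1b site, reads lower in DKO, chr11:32186034-32186073, plus strand: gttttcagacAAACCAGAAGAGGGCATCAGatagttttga

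CTCF was called at nearly as many places in both genotypes. The WT lists held 62069 and 62772 peaks and the DKO lists 64629 and 64634. Both DKO lists were longer than both WT lists. The log2 difference was 0.05 ± 0.04 (SE), which did not pass limma's moderated test over the 16 antibodies of the series (adjusted p = 0.33). Peaks were narrow, with a median width of 290 to 302 bp, and covered 19.4 and 19.6 Mb in WT and 20.6 and 21.0 Mb in DKO. Neighbouring summits lay a median of 16320 and 16170 bp apart in WT and 15600 and 15680 bp apart in DKO.

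The lists give no read totals, but the depth behind each peak could be solved from its fold enrichment and its p value. A whole number of reads stacked at the summit matched the caller's values for 99.1% and 99.8% of WT peaks and for 100% of DKO peaks. The tolerance was 0.0005 plus a small share of the deposited −log10 p, so it was wider at stronger peaks. A median peak rested on 110 and 132 stacked reads in WT and on 119 and 128 in DKO. The solution assumes that the caller added a pseudocount of 1 to pileup and background and scaled the larger of the ChIP and input libraries down to the smaller, and no raw pileup was used here to check the read counts and backgrounds it gives. Under it, 1 read counted as 0.517 and 0.429 in WT and as 0.553 and 0.517 in DKO. The lowest background after scaling was 1.15 in both WT lists against 1.48 and 1.53 in the DKO lists. With every list held to the scaled depth of the WT list of replicate 1, an alternative chosen after the data were seen, the numbers were 62069 and 62757 for WT and 64466 and 64472 for DKO.

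Most CTCF sites were shared by all libraries. Of the 70857 sites, 56473 (79.7%) were called in all 4, and these held 91.7% and 90.6% of the WT peaks and 88.0% and 87.8% of the DKO peaks. The sites that both WT lists held and neither DKO list did, termed WT-only, numbered 931 (1.31% of all sites). The reverse pattern, termed DKO-only, was found at 2048 sites (2.89%). The remaining 11405 sites showed other patterns, among them 2340 called in a single WT library and 3610 called in a single DKO library. The number of single-library sites thus exceeded that of the sites seen in both libraries of a single genotype, in WT as in DKO. There were 2.2 times as many DKO-only as WT-only sites, and 1.43 times as many without WT replicate 1 (2982 against 2080). With only peaks of a −log10 q of at least 5 the counts were 927 WT-only and 2171 DKO-only, with summits joined within 200 bp 1029 and 2113, and with all lists at the same scaled depth 962 and 2009. With the same number of strongest peaks taken from each library, a setting that brings the 2 counts close by its construction, they were 1382 and 1460.

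Sites called in a single genotype were weak. Fold enrichment is the pileup at the summit over the local background. At sites called in all 4 its median was 17.9 and 18.1 in WT and 18.8 and 18.4 in DKO. At WT-only sites the median was 6.23 and 6.21, and at DKO-only sites 5.97 and 5.85. These medians come from the same lists that define the classes and are given as a description. In stacked reads a median WT-only site rested on 30 and 35 reads and a median DKO-only site on 33 and 36, close to the 5% of weakest peaks of the lists, which had at most 29 to 34 reads. Of the WT-only sites, 59.5% had a −log10 q under 10 in their stronger library, as had 47.0% of the DKO-only sites and 1.08% of the sites called in all 4. At the edge of calling, 3.22% of WT-only and 2.69% of DKO-only sites stayed under a −log10 q of 5, where the lists themselves end near 2.

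**Figure D1:**
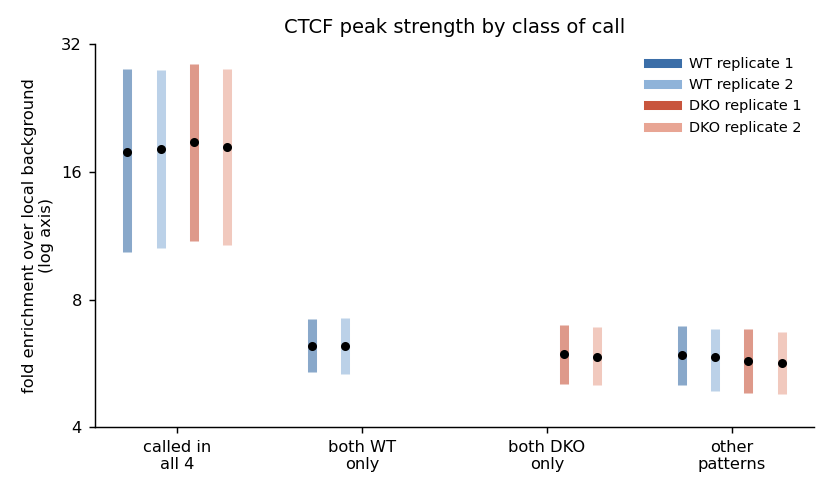
Fold enrichment of CTCF peaks (log axis) by class of call. Bars span the lower to the upper quartile over sites in each library and black points mark the median. Sites called in all 4 libraries have medians of 17.9 to 18.8, and the other 3 classes have medians of 5.68 to 6.23.

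The share of sites missing from the other genotype fell steeply with strength. Strength here is the caller's own −log10 p, so weak sites lie nearest the calling threshold by construction, and the shares are a description. Sites called in both WT libraries were ranked by mean −log10 p and divided into 10 classes of equal number. In the weakest class 12.9% (758 sites) were in no DKO list, in the next 2.21% and in the third 0.476%, and from the fourth class up no class exceeded 0.102%. Of the sites called in both DKO libraries, 25.3% (1545 sites) of the weakest class were in no WT list, followed by 7.21% and 0.705% and by at most 0.213% from the fourth class up. In the strongest class 0 of 5882 WT sites and 0 of 6099 DKO sites were absent from the other genotype.

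**Figure D2:**
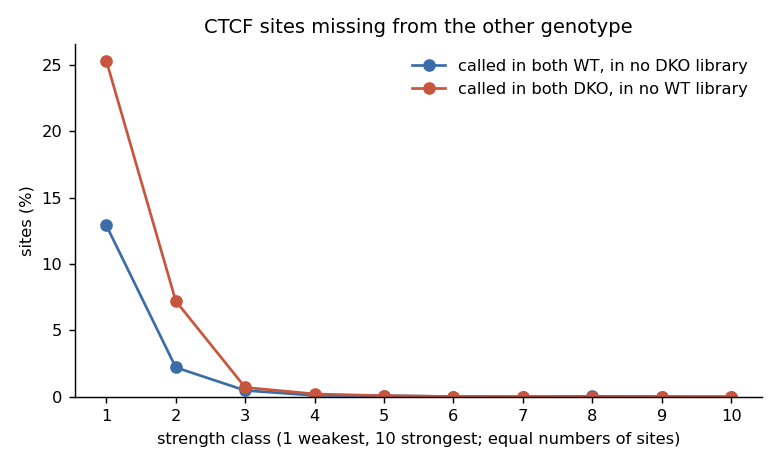
Percent of CTCF sites called in both libraries of a genotype and in no library of the other, by strength class. Each class holds 5882 WT sites, or 6099 or 6100 DKO sites. Both curves drop from 12.9% (WT) and 25.3% (DKO) in the weakest class to under 1% from the third class up.

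A few genotype-only sites were strong. Of the WT-only sites 30 had a mean −log10 q of at least 20, and of the DKO-only sites 47. The strongest WT-only site, chr11:32515818-32516507 in an intron of the kinase gene Stk10, had 211 and 229 stacked reads and a fold enrichment of 37.3 and 33.7. The next was chr11:31673064-31673427, an intergenic site whose nearest start is that of Cpeb4, an RNA-binding protein, with 187 and 215 reads. It was followed by an intergenic site near Gm9972 (chr11:42873959-42874380, 150 and 192 reads) and by an intergenic site 24124 bp from the start of the B cell factor Ebf1 (131 and 148 reads). These 4 strongest WT-only sites all lay on chromosome 11. In the DKO lists 99% of called peaks had at least 24 and 26 reads, and none was called at these places, so no fold can be given. The other 6 of the 10 strongest WT-only sites lay near Npas1 and Klf13 on chromosome 7, near Qrfpr and Atp11b on chromosome 3, near Gpr19 on chromosome 6 and in an exon of Cit, which encodes citron kinase, on chromosome 5, with 72 to 154 reads.

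The strongest DKO-only site, chr14:49588396-49588744, was intergenic, 79946 bp from the start of the exocyst gene Exoc5, with 170 and 182 stacked reads and a fold enrichment of 23.8 and 23.2. The second lay 134 bp from the start of Depdc1b, in an exon of the noncoding transcript Gm2822 (chr13:109106187-109106534, 177 and 208 reads), and was the single promoter among the 10. Of the 10 strongest DKO-only sites, 5 were on chromosome 14, between Gm8126 and Acin1. One of these lay 130012 bp from Otx2, which encodes a homeodomain factor of the forebrain, and another in an intron of Acin1. The remaining sites lay in an intron of the phosphodiesterase gene Pde4d on chromosome 13, in an intron of the kinase gene Vrk2 and near Acyp2 on chromosome 11 and near 1110057P08Rik on chromosome 16. All 10 rested on 64 to 208 reads.

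CTCF sites of all classes sat near other CTCF sites. A site called in all 4 had its nearest such neighbour at a median of 8475 bp, and 55.0% had a neighbour within 10 kb. The median distance to the nearest site called in all 4 was 9809 bp for WT-only sites and 9542 bp for DKO-only sites, with 50.6% and 51.3% within 10 kb. WT-only sites were rarely close to each other, with 0.644% within 10 kb of another WT-only site. For DKO-only sites the value was 4.05%.

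Where both neighbouring sites called in all 4 held the motif, its direction could be compared over 20748 pairs. Pairs pointing the same way made up 52.5%, pairs pointing towards each other 23.0% and pairs pointing apart 24.5%. The share pointing towards each other was 19.2% for pairs under 10 kb apart, 23.0% from 10 to 50 kb, 28.9% from 50 to 200 kb and 34.3% for the 635 pairs over 200 kb apart. The share pointing apart moved the other way, from 26.4% to 16.7%. These shares are a description over neighbours on the genome and were not tested.

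Between 45.7% and 53.0% of the sites of each of these 3 classes lay between genes. In GENCODE vM1 50.2% of the sites called in all 4 were intergenic, 42.8% were intronic and 6.99% exonic. The median distance to the nearest start of a protein-coding transcript was 21340 bp. Promoter sites, within 1000 bp of such a start, made up 7.35% of the sites called in all 4, 6.44% of the WT-only sites (60 sites, 95% exact binomial interval 4.95 to 8.22%) and 12.8% of the DKO-only sites (262 sites, 11.4 to 14.3%). For comparison, the share was 9.57% in the weakest strength class of WT sites, 10.7% in that of DKO sites and 9.72% in the sites with other patterns. Per library, promoters held 7.28% and 7.68% of WT peaks and 7.71% and 7.90% of DKO peaks. The DKO shares lay above the WT shares, and the exact two-sided permutation test over libraries gave p = 0.333, the smallest value that 2 against 2 allows.

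The motif was less frequent at genotype-only sites than at shared sites. Within 100 bp of the summit it was found at 61.9% of the sites called in all 4, at 36.5% of WT-only sites (33.3 to 39.8%) and at 34.7% of DKO-only sites (32.5 to 36.8%), against 2.47%, 1.28% and 2.47% at positions 5000 bp away. Its median distance from the summit was 9.5 bp in sites called in all 4, 18.5 bp in WT-only and 19.5 bp in DKO-only sites. Along the strength classes of WT sites the share with a motif rose from 41.7% to 74.0%, and along those of DKO sites from 39.4% to 73.5%. Every conserved letter was present at 19.2% of the sites called in all 4, at 16.6% of WT-only and at 14.4% of DKO-only sites. Such full matches numbered 10130, 142 and 279, beside 32667, 313 and 673 sites with the motif. The median match score was 19.6, 21.1 and 21.4 bits, so the lower shares do not show poorer matches at genotype-only sites. At sites with other patterns 35.9% held the motif and 16.2% every conserved letter. The intervals given for the motif shares cover counting error only, since neighbouring sites and repeated sequence are not independent.

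The pluripotency factors overlapped few CTCF sites. NANOG peaks of both WT libraries overlapped 2.81% of the sites called in all 4, 4.40% of WT-only and 4.0% of DKO-only sites. With the DKO lists, which held 62697 and 64486 NANOG peaks against 52307 and 53524 in WT, these shares were 4.33%, 3.87% and 6.84%. OCT4, SOX2 and KLF4 peaks overlapped at most 2.58% of any of these 3 classes in either genotype.

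The strength of the 56473 shared sites was then compared after each library was centred on its median. By fold enrichment 12779 sites (22.6%) were called higher and 14227 (25.2%) lower in DKO by the limma-trend test with Benjamini-Hochberg adjustment. The local background that enters fold enrichment differed between genotypes at the same sites. It differed by under 10% between the WT libraries at 83.0% of these sites, between the DKO libraries at 78.7% and between WT replicate 1 and DKO replicate 1, after centring, at 17.2%. Across sites the change in fold enrichment and the change in local background had a Pearson r of -0.963 and the change in stacked reads and in background one of 0.031. The sites share their libraries and the fold enrichment holds the background in its denominator, so these are descriptions without a p value. Libraries of a genotype had nearly the same background at most sites, so the spread between them holds little of its variation. The p values of the fold enrichment test may therefore be too small. Its calls, here and at the named genes, are given as a description.

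When the reads stacked at the summit replaced fold enrichment, an alternative chosen after the data were seen, 158 of 56321 sites (0.281%) were called higher and 147 (0.261%) lower in DKO. Of these 305 sites, 181 were called in the same direction by fold enrichment and 22 in the opposite one. The central 95% of sites changed by -0.34 to 0.31 on the log2 scale in stacked reads and by -1.18 to 1.19 in fold enrichment. The median SE was 0.11 in stacked reads. The 10 sites with the largest called changes in fold enrichment illustrate the difference. Near the transporter gene Slco5a1 (chr1:13042108-13042477) fold enrichment was 9.07 and 8.44 in WT and 47.8 and 48.3 in DKO, while the stacked reads were 279 and 312 in WT and 298 and 331 in DKO over a local background of 15 in both WT libraries and of 2.47 and 2.56 in DKO. Near 1600014C10Rik (chr7:38985839-38986594) fold enrichment was 67.9 and 63.0 in WT and 13.1 and 13.3 in DKO, with 392 and 438 reads in WT and 423 and 461 in DKO. The sites near Trim33, Pecam1 and in Tspan15, called higher, and near Rfk, Nckap5, Anp32a and Cd1d2, called lower, also failed the test on stacked reads. The site near Mcm3, a subunit of the replicative helicase (chr1:20822462-20822878), passed both: 54 and 84 reads in WT and 154 and 155 in DKO.

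**Figure D3:**
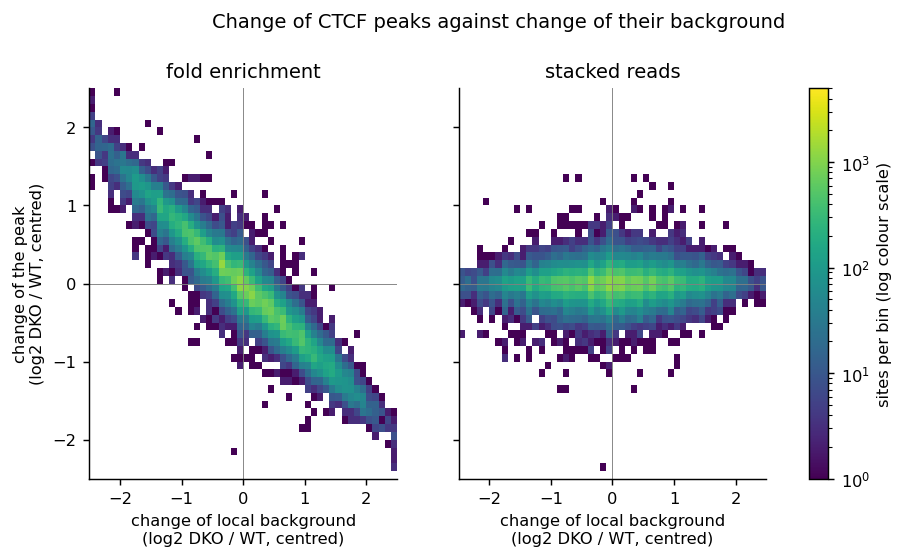
Change of CTCF peaks at 56321 sites called in all 4 libraries (log2 DKO over WT, centred) against the change of their local background (log2, centred), left by fold enrichment and right by stacked reads. Colour gives the number of sites per bin on a log scale, and changes beyond the axis ends are drawn in the outermost bins. The left cloud falls along a line and the right cloud stays around 0.

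Libraries of the same genotype were closer to each other than independent counts would be. The mean chi-square per site of the stacked reads, which is 1 when reads differ by counting error alone, was 0.846 for the WT pair, 0.744 for the DKO pair and 0.886 to 1.02 for the 4 pairs of unlike genotype. Pairs of either kind differed by little more or by less than the sampling noise, so the measure did not single out a repeat deposit of 1 library, and each was counted as 1 library. The p values rest on this spread between libraries and may therefore be too small. Without WT replicate 2 the stacked reads called 492 sites, without DKO replicate 1 162, without DKO replicate 2 188 and without WT replicate 1 219, and between 50.5% and 76.4% of the 305 were among them.

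Sites that lost reads in DKO were led by chr11:35910779-35911192, in an intron of Odz2, which encodes a teneurin, a cell adhesion protein of neurons, with Wwc1 as the nearest start. It had 163 and 191 stacked reads in WT and 31 and 48 in DKO. The change was -2.32 ± 0.16 (SE) on the log2 scale (adjusted p = 4.87e-22, limma-trend over all sites), the largest drop of any shared site. Its fold enrichment was 28.9 and 28.1 in WT and 5.66 and 7.84 in DKO. A site in an intron of Stard13, with Kl as the nearest start (chr5:151854689-151854930), went from 112 and 128 reads to 47 and 54. A site 878 bp from the start of the globin gene Hbq1b (chr11:32185713-32186162) had 62 and 69 reads in WT and 26 and 32 in DKO. An intergenic site 17641 bp from the start of Dppa3, a factor of naive stem cells and the early embryo (chr6:122594259-122594553), had 151 and 188 reads in WT and 94 and 74 in DKO. In each of these 4 sites the lowest WT value exceeded the highest DKO value. The same held for 3 sites of chromosome 14 near Olfr750, Gm8229 and Sftpd and for a site in an intron of Hook3 on chromosome 8, whose nearest start is that of Fnta, with changes of -1.30 to -1.12. These sites were chosen for their large changes after their values were seen. The genotypes were separated in this way at 134 of the 147 sites called lower, so the separation is a description.

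Sites that gained reads in DKO were led by an intergenic site 20041 bp from the heat shock gene Hsph1 (chr5:150458806-150459109), with 35 and 62 stacked reads in WT and 132 and 133 in DKO. The change was 1.39 ± 0.17 (SE) on the log2 scale (adjusted p = 5.93e-10). A site in an intron of the neighbouring glycosyltransferase gene B3galtl (chr5:150496586-150496910) rose from 30 and 33 reads to 80 and 94. Near Vmn1r159, a vomeronasal receptor gene (chr7:23640546-23640759), 42 and 59 reads in WT stood against 145 and 138 in DKO. In the intron of Pde4d, with Gm9000 as the nearest start (chr13:109512453-109512881), there were 86 and 110 reads in WT and 241 and 252 in DKO, beside the third strongest DKO-only site. Sites near Gm5155, Txnl1, Dclk1 and Rpp21 rose by 1.09 to 1.33 on the log2 scale. No library of a genotype overlapped the other genotype at any of these 8 sites. The same was true of 154 of the 158 sites called higher, so it does not set the 8 apart. The share over all shared sites was not counted. These 8 sites too were chosen after their values were seen. Vomeronasal and olfactory receptor genes belong to large families of similar copies, and whether reads with several matches were kept is not given in the sources used here.

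**Figure D4:**
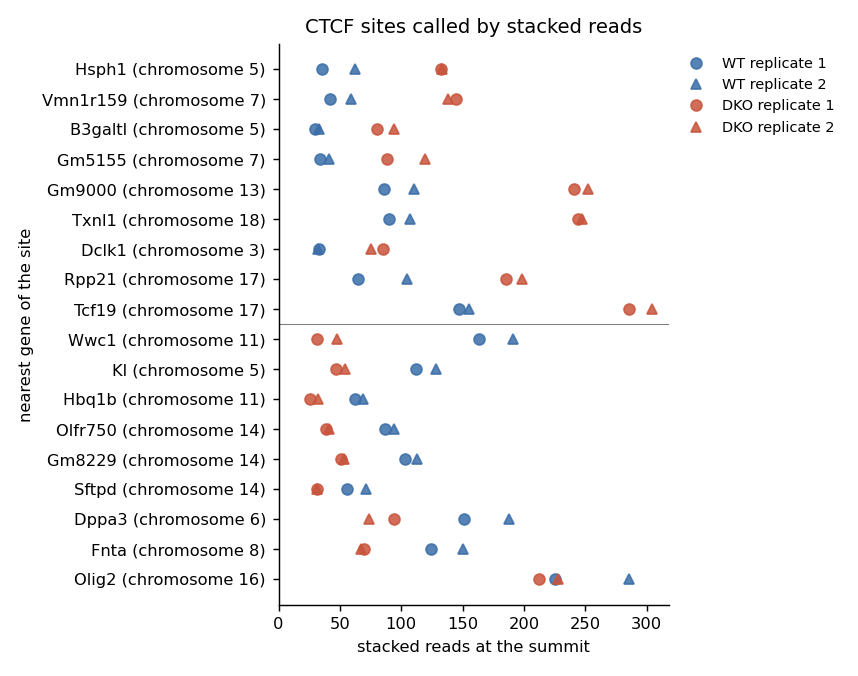
Stacked reads at the summit (linear axis from 0) in each of the 4 CTCF libraries at 18 sites called by stacked reads, named by the nearest protein-coding start. The 9 sites above the line were called higher and the 9 below it lower in DKO, and at all but the Olig2 site the WT and DKO values do not overlap. The sites were picked from those called, so this separation is a description.

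Stretches rich in called sites were then listed. Sites called by stacked reads and genotype-only sites with a mean −log10 q of at least 20 made up 382 sites. Joined where they lay within 2 Mb of each other, 175 of them (45.8%) fell into 10 stretches with at least 8 each, which together spanned 47.3 Mb (1.78% of the chromosomes) and held 2.69% of the sites called in all 4. The stretches were drawn from the called sites themselves, so these shares are a description. On chromosome 14, 38 lay between 48757830 and 55333347 and 21 between 42019854 and 46696763. In the latter stretch 28.1% of 64 shared sites were called. On chromosome 7, 31 lay between 16466155 and 26873987, 22 of them higher in DKO, and 16 between 70882533 and 71376369, of which 15 were lower in DKO and 1 was WT-only. In that last stretch of 0.494 Mb 71.4% of the 21 shared sites were called lower, and the median change was -0.48 in stacked reads. The local background there had changed by 0.34, against a median of 0.39 over all shared sites. In the window from 44 to 45 Mb of chromosome 14, in contrast, the 13 shared sites had a median change of -0.89 in stacked reads and of -0.41 in local background. The read changes were centred on the median of each library. The background changes were not, so they are to be read against their median of 0.39 over all shared sites. The part of the background in these changes was not tested.

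**Figure D5:**
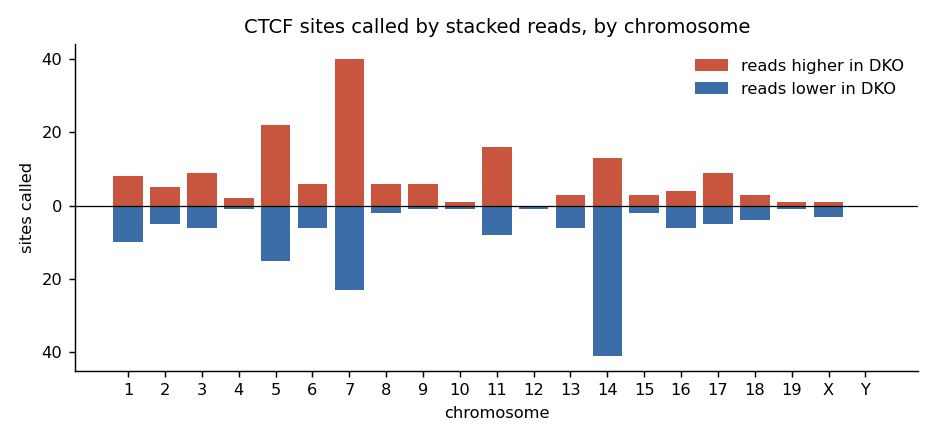
Number of shared CTCF sites called by stacked reads on each chromosome, higher in DKO upwards and lower in DKO downwards. Chromosome 7 has 40 higher and 23 lower, chromosome 14 has 13 higher and 41 lower, chromosome 5 has 22 higher and 15 lower, and Y has none.

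Whole chromosomes differed little. The share of a library's peaks was tested for 21 chromosomes and 2 passed (9.52%). Chromosome 14 held 2321 and 2344 peaks in WT and 2513 and 2501 in DKO, a log2 change of share of 0.05 ± 0.004 (SE, adjusted p = 0.00532, limma). This call was lost without either WT library, at adjusted p values of 0.177 and 0.191. Of its 2730 sites 4.47% were DKO-only, the highest share of any chromosome. The local background of its shared sites changed by a median of 0.21, the lowest of any chromosome, against 0.37 to 0.44 elsewhere. Their stacked reads, which unlike the background were centred on each library's median, changed by a median of -0.0038. Chromosome 6 held 3526 and 3560 peaks in WT and 3609 and 3587 in DKO, a log2 change of share of -0.03 ± 0.005 (adjusted p = 0.0449), and this call was lost without any 1 library, at adjusted p values of 0.0739 to 0.234. Of 2268 windows of 1 Mb with a mean of at least 5 peaks, 0 (0.0%) passed limma-trend and 280 had an unadjusted p under 0.05. With the replicate number as a block 98 windows passed. Without WT replicate 1 551 passed, without WT replicate 2 535, without DKO replicate 1 72 and without DKO replicate 2 45, so the count of 0 does not show that no window differed. Sites called in all 4 were densest on chromosome 11, at 32.5 per Mb, and sparsest on Y and X, at 8.36 and 9.83 per Mb. The 3 sites with the highest mean fold enrichment of all, 91.2 to 121.7, were intergenic sites of 4513 to 6656 bp on chromosome Y, near Gm3395.

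The lists of genes are read against all shared sites, of which 0.542% were called by stacked reads in either direction and 7.5% had an unadjusted p under 0.05. Each list holds so few sites that a share of called sites near this background gives a count of 0 or 1. Within 10 kb of 20 genes of cohesin and its partners lay 54 sites called in all 4, at 17 of the genes. By stacked reads limma called none, with 4 at an unadjusted p under 0.05, and the median change was 0.026 against 0.0032 over all shared sites, while by fold enrichment 12 were called higher and 12 lower, against 22.6% and 25.2% of all shared sites. The promoter site of Stag1, a cohesin subunit (chr9, from 100543712), had 246 and 334 stacked reads in WT and 295 and 345 in DKO. At Ctcf itself the strongest of 3 shared sites had 175 and 244 reads in WT and 236 and 249 in DKO. A WT-only site lay 6619 bp from the start of the cohesin gene Rad21 (31 and 38 reads), which had no shared site, and DKO-only sites lay near Ctcf (33 and 31 reads) and Yy1 (36 and 27 reads).

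Of 21 pluripotency genes found in the annotation 20 had a site called in all 4, 52 sites in total, with a median change of 0.047 in stacked reads, and 1 was called by this measure (against 0.542% of all shared sites), with 6 at an unadjusted p under 0.05 (against 7.5%). By fold enrichment 13 were called higher and 10 lower, against 22.6% and 25.2% of all shared sites. The site called by stacked reads lay at chr17:35650251-35651326, in an intron 2461 bp from the start of Tcf19 and within 10 kb of Pou5f1, which encodes OCT4. It had 147 and 155 stacked reads in WT and 286 and 304 in DKO, a change of 0.84 ± 0.08 (SE) on the log2 scale (adjusted p = 1.28e-13). Fold enrichment was 23.0 and 20.2 in WT and 37.5 and 36.2 in DKO. At Nanog the strongest of 4 shared sites had 307 and 361 reads in WT and 340 and 361 in DKO, and at Sox2 201 and 260 in WT and 264 and 270 in DKO. Esrrb, an orphan receptor gene of the pluripotency network, had 9 shared sites and 1 WT-only site (34 and 48 reads). Prdm14 and Tdgf1 had 1 DKO-only site each, with 33 to 56 reads. Of the list's 71 sites 1.41% were WT-only and 2.82% DKO-only, against 1.31% and 2.89% of all sites.

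The 17 early lineage genes had 37 shared sites, with a median change of 0.11 in stacked reads, and 1 was called by this measure (against 0.542% of all shared sites), with 6 at an unadjusted p under 0.05 (against 7.5%). The called site lay 666 bp from the start of Olig2, a factor of the oligodendrocyte lineage (chr16:91224941-91225422), with 225 and 286 reads in WT and 212 and 228 in DKO. The groups overlapped in raw reads, and after centring the change was -0.33 ± 0.08 (SE, adjusted p = 0.00832), a call that was lost without WT replicate 2 or either DKO library, at adjusted p values of 0.0668 to 0.233. By fold enrichment 7 of the list's sites were called higher and 11 lower, against 22.6% and 25.2% of all shared sites. The strongest of the sites of Eomes, Cdx2, Hand1 and Foxa2 were not called by stacked reads, while the Foxa2 site, the single shared site of that gene, was called higher by fold enrichment (26.1 and 30.3 in WT, 47.8 and 41.7 in DKO). The Eomes site had 253 and 319 stacked reads in WT and 339 and 330 in DKO, and the Foxa2 site 180 and 252 in WT and 262 and 251 in DKO.

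Among 39 Hox genes 34 had a site called in all 4, 29 distinct sites in total, and among all 35 sites 0 were WT-only and 0 DKO-only, against 1.31% and 2.89% of all sites. Changes in stacked reads lay between -0.17 and 0.24 on the log2 scale, with a median of 0.026. By stacked reads limma called none, against 0.542% of all shared sites, and 0 had an unadjusted p under 0.05. By fold enrichment it called 6 higher and 11 lower, against 22.6% and 25.2% of all. The site 29 bp from the start of Hoxa7 (from position 52171457 of chromosome 6) had 264 and 336 reads in WT and 318 and 350 in DKO. The one 52 bp from the start of Hoxa5 had 271 and 311 in WT and 308 and 324 in DKO. In the HoxD cluster the exonic site of Hoxd3 had 268 and 307 in WT and 303 and 322 in DKO.

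Of 15 imprinted genes 14 had sites called in all 4, 44 in total, with changes in stacked reads of -0.40 to 0.45 and a median of 0.026. By fold enrichment limma called 12 higher and 13 lower, against 22.6% and 25.2% of all shared sites. By stacked reads it called none, against 0.542% of all, and 6 had an unadjusted p under 0.05, against 7.5% of all. At H19, where CTCF insulates the maternal Igf2 allele, the strongest of 3 shared sites had 130 and 181 reads in WT and 160 and 173 in DKO. The strongest site at Igf2 had 227 and 262 in WT and 242 and 267 in DKO. There were 3 DKO-only sites (4.84% of 62, against 2.89% of all sites), at Peg3, 74 bp from its start, at Meg3 and at Gnas, with 29 to 50 reads, and 1 WT-only site in an intron of Grb10 (37 and 42 reads). At the X inactivation centre Xist and Tsix shared a WT-only site in an exon (chrX:100676881-100677133) of 18 and 29 reads, and had 6 shared sites between them. The WT-only site made up 14.3% of these 7 sites, against 1.31% of all sites. By stacked reads limma called none of the 6, against 0.542% of all shared sites. By fold enrichment it called 2 higher and 3 lower, against 22.6% and 25.2%. Within 1 Mb of Hmgn1 61 shared sites included 1 called higher in stacked reads, and within 1 Mb of Hmgn2 none of 145 was called by stacked reads, against 0.542% of all shared sites. By fold enrichment 16 were called higher and 14 lower around Hmgn1, and 38 and 33 around Hmgn2, against 22.6% and 25.2% of all.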

How the data were processed

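The 4 CTCF ChIP-seq libraries of ESCs, 2 per genotype, were analysed from their deposited peak lists. The authors trimmed reads with CutAdapt 1.16, mapped them to mm9 with BWA, marked duplicates with Picard, dropped reads in blacklisted regions and used MACS2 2.1.1.20160309 for the narrow peaks. Which of the input libraries served which list, and the read layout of each library, are not given in the sources used here, and the 8 input samples were not analysed here. Per the labels the cells are C57BL/6. The deposited fold enrichment is the ratio that the authors' caller gave of pileup to local background at the summit. The −log10 p and −log10 q columns, as deposited, come from the caller's Poisson test at the same position.

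Peaks were merged at 1 bp overlap in Python 3.11.15. Reads stacked at the summit were solved from fold enrichment and −log10 p. Peak numbers, chromosome and window shares and log2 values of sites, each library centred on its median, were compared with limma 3.58.1 in R 4.3.3, adjusted by Benjamini-Hochberg at 0.05, without a replicate block. Windows had a pseudocount of 1. In simulated data 98.0% of 200 sites changed by 1 on the log2 scale were recovered by fold enrichment among 56473 sites, and 92.5% of 200 by stacked reads among 56321. The simulated libraries had independent noise and no difference in local background between genotypes. These shares therefore do not show whether the calls in the real data are right. The median called changes in real stacked reads were smaller, 0.615 and -0.739. Annotation was GENCODE vM1 on mm9. Sites outside genes are named by the nearest start of a protein-coding transcript, and sites in introns or exons by the gene that spans them where 1 is annotated.

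The sites, gene lists and tests were chosen with earlier results of these data known. Named sites were the 10 strongest WT-only and DKO-only sites by mean −log10 q, the 10 shared sites of highest fold enrichment, the 5 largest called changes in fold enrichment each way, and sites in or within 10 kb of listed genes. Those named for stacked reads, and the stretches of called sites, were chosen after the data were seen. Symbols not found in the annotation were left out. Of the X inactivation list 2 of 5 genes were found.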

Additional observations from a re-analysis of the deposited data

How the results depend on the processing

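The log2 difference in peak number stayed between 0.04 and 0.09 and unpassed under every alternative run, and was 0.0502 with replicate number as a block (adjusted p = 0.251). Same-numbered libraries did not deviate together (correlation 0.018 for fold enrichment and 0.023 for stacked reads over sites), so the numbers were not taken as pairs. The block changed the window count from 0 to 98 and no other call count by more than 1.5 times. With −log10 p in place of fold enrichment 7030 sites were called higher and 7530 lower, and with stacked reads 158 and 147. Without centring 13960 were higher and 12709 lower, so that the larger side changed. With 1 library left out, calls by stacked reads ranged from 70 to 290 higher and from 88 to 202 lower, chromosomes called from 0 to 1, windows called from 45 to 551, WT-only sites from 1627 to 2122 and DKO-only sites from 2982 to 3869. These single-library fits assume that the lone library varies like the others. With only peaks of a −log10 q of at least 5, 1 chromosome was called, chromosome 14, and 62.3% of shared sites held the motif. A promoter distance of 2000 bp gave 11%, 9.88% and 17.5% for shared, WT-only and DKO-only sites, and a motif window of 50 bp gave 58.7%, 27.7% and 26.5%. The cause of these shifts was not tested. The median site of the genotype-only classes rested on 30 to 36 stacked reads.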
